A study of Mus musculus with 14 samples.

Results

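Loss of Rheb1 in hematopoietic stem cells was measured on 2 of the 14 arrays of this mouse series: 1 array of stem cells labelled Rheb1-/- and 1 of stem cells labelled wild type. Both were chosen by their labelled cell type and genotype, and the genes described are those whose probe was well above background on at least 1 of the 2 arrays, which held for 18639 of the 27343 genes on the array and on both arrays for 16656. The Rheb1-/- animals were Vav1-cre; Rheb1fl/fl, in which a Cre driven by a Vav1 promoter recombines floxed Rheb1 throughout the blood system and not in stem cells alone. The labels call the controls wild type, and give no age, sex, sorting gate or number of pooled animals for any group. The other 12 arrays held myeloid progenitors and myeloid cells, each with 3 samples of either genotype, and they serve here as a measure of spread and as the same genotype contrast in other samples, some of which lay on the slides of the stem cell arrays. All differences are Rheb1-/- minus wild type. With 1 array on each side they have no test, no standard error and no p-value.

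Rheb1, whose official symbol is Rheb, encodes a small GTPase on the lysosome surface that, when bound to GTP, switches on the kinase complex mTORC1. The TSC1-TSC2 complex turns Rheb off, and mTORC1 in turn drives ribosome production, translation and lipid synthesis and holds back autophagy. Hematopoietic stem cells are mostly quiescent, rebuild all blood lineages, and lose their long-term function when mTORC1 is driven too hard, as after loss of Tsc1.

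Levels are log2 signal intensities minus the 75th percentile of the array, so a gene at 0 sits at that percentile. Between 58.5% and 67.6% of the spots of an array were well above background and none was saturated. The 2 stem cell arrays shared no slide: the wild-type one lay on slide 2 beside wild-type progenitor array 1, the only arrays scanned on the first of the 2 scan days, and the Rheb1-/- one on slide 1 beside the 3 wild-type myeloid arrays. Genotype, slide and scan day therefore cannot be told apart in the stem cells.

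Rheb read 3.51 on the wild-type stem cell array and 2.31 on the Rheb1-/- array, a difference of -1.20 or 2.3-fold. That exceeded the largest difference of this gene between any 2 replicate arrays of the other groups, 0.75. In progenitors the levels were 3.99, 4.08 and 3.82 against 3.31, 2.69 and 2.65, and in myeloid cells 3.61, 3.00 and 2.86 against 2.23, 2.16 and 2.43, with no overlap in either cell type. limma gave -1.08 in progenitors (adjusted p = 0.095) and -0.88 in myeloid cells (adjusted p = 0.0121), with a standard error of 0.22 in both. The fall thus passed an adjusted p under 0.05 in myeloid cells alone, though it was no smaller in progenitors. The probe lies on the minus strand of chr5 in mm9, from 24308641 to 24308675, and whether it falls within the floxed stretch was not analysed here.

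Over all genes, 1813 were at least 2-fold higher (9.73%) and 1562 at least 2-fold lower (8.38%) on the Rheb1-/- stem cell array, together 18.1% of those measured, around a median of 0.14. Replicate arrays of 1 group differed by 2-fold in 6.78% to 10.8% of their genes over the 12 possible pairs, and in 9.18% to 10.8% over the 4 pairs that crossed slides. The pairs of opposite genotype spanned 6.35% to 14.4% in progenitors and 12.6% to 20.7% in myeloid cells. Among genes well above background on both stem cell arrays, 869 were higher and 1055 lower, or 11.6%, against 2.05% to 4.07% for replicates. The stem cell arrays were thus further apart than any replicate pair, and within the range of the myeloid cell pairs, which also crossed slides. Their levels correlated across genes at 0.973, as a description, where replicates gave 0.981 to 0.988. The split between higher and lower depended on the background correction: 53.7% of the 2-fold differences were higher as given above, and 28.6% (353 higher, 883 lower) after normexp correction. Rheb itself stayed between -1.33 and -1.20 under every other processing tried.

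**Figure D1:**
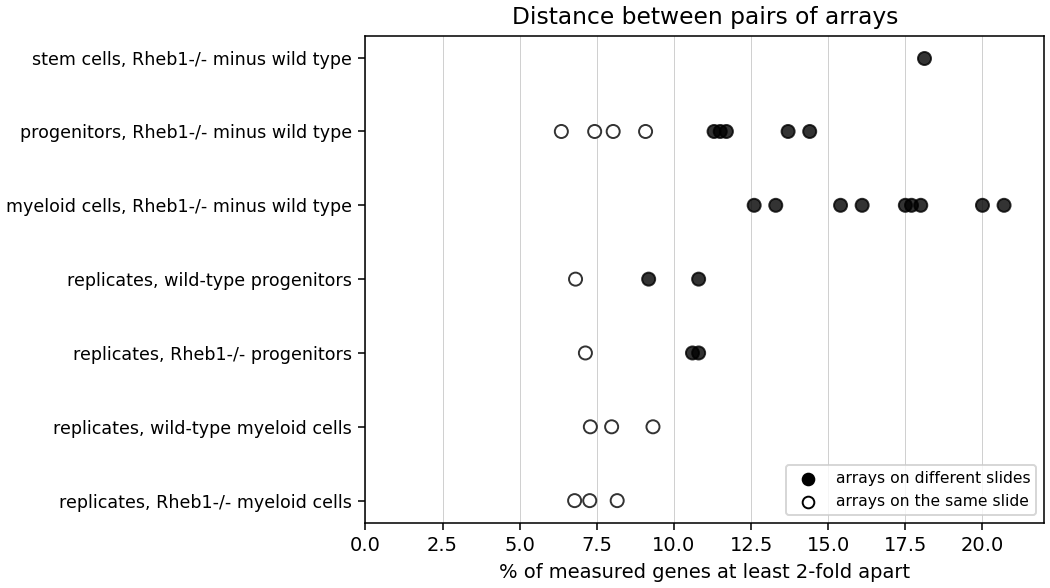
Share of measured genes at least 2-fold apart (x axis, %) for each pair of arrays, 1 point a pair, filled where the arrays lay on different slides. The single stem cell pair stands at 18.1%, beyond the 12 replicate pairs (6.78% to 10.8%) and among the myeloid genotype pairs (12.6% to 20.7%).

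The lower and the higher genes differed in level. Genes lower on the Rheb1-/- array reached a median level of -1.72 on the brighter array, and 980 of the 1562 (62.7%) were at least 2-fold higher in wild-type myeloid cells than in wild-type progenitors, against 24.4% of all measured genes. For 766 of them (49%) the wild-type stem cell array was the highest of all 14, against 8.47% of measured genes. The rule of choosing low differences favours such genes, so these shares describe the set and test nothing. Without the genes 2-fold higher in wild-type myeloid cells, 1182 were higher and 582 lower, and without those highest on the wild-type stem cell array, a choice made after seeing the data, 796 were lower. Higher genes were dim, with a median level of -4.02 on the brighter array, and 631 of the 1813 (34.8%) were 2-fold higher in wild-type myeloid cells. The wild-type stem cell array lay at least 2-fold above all 13 other arrays in 522 genes and the Rheb1-/- one in 370, against 66 to 239 for the other 12. Each of those 12 had replicates of its own group among the arrays to exceed and the stem cell arrays had none. That favours larger counts for the stem cell arrays, so the counts are not alike.

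The labelled cell type was checked first. Of 48 measured stem cell genes, 40 were higher on both stem cell arrays than on every progenitor array, which held for 21.2% of all measured genes. The summed linear level of the list was 415 on the wild-type array and 411 on the Rheb1-/- array, against 109 to 155 on the progenitor arrays. Hlf, a transcription factor of long-term stem cells, read 3.00 and 3.25 (wild type, then Rheb1-/-) against a mean of -0.35 in wild-type progenitors. Procr, the surface protein EPCR used to sort stem cells, read 1.16 and 1.54 against -2.81. Fgd5, expressed in stem cells and endothelium, read -2.30 and -1.84 against -7.73. Conversely 20 of 24 myeloid progenitor genes were lower on both stem cell arrays than on every progenitor array, against 31% of all genes. Transcripts of these stem cell genes were thus more abundant on both arrays than on the progenitor arrays.

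Within that list 6 members were 2-fold higher and 4 lower on the Rheb1-/- array, where 18.1% of all measured genes were 2-fold apart. The median difference was 0.33, inside the 0.36 that the same list reached between replicate arrays. Mecom, Prdm16, Mllt3, Robo4 and Hlf, all regulators or surface markers of stem cells, differed by -0.08, -0.05, 0.01, 0.02 and 0.25. Selp, the adhesion molecule P-selectin, was higher (-0.63 against 0.93 on the Rheb1-/- array, a difference of 1.56), as was Tek, the receptor TIE2 for angiopoietin (-4.79 against -3.50, or 1.29), and both went past their own replicate differences. Esam, an endothelial adhesion molecule also on stem cells, differed by 1.19, which its replicates matched (1.23). Lower members were Sult1a1, a sulfotransferase (-2.23), and the immediate early factors Egr1 (-1.35) and Nr4a1 (-1.10). Kit, the stem cell factor receptor, read 2.87 and 3.46.

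Macrophage markers carried the largest difference of any list. Of 49 measured, 46 were at least 2-fold lower on the Rheb1-/- array and none was 2-fold higher. The median was -3.39, where no replicate pair exceeded 0.32 in either direction, and 43 went beyond their own replicate differences (11.4% of all measured genes did so downward). Their summed linear level was 1260 on the wild-type stem cell array and 271 on the Rheb1-/- one. The wild-type progenitors and Rheb1-/- progenitors together spanned 401 to 607, wild-type myeloid cells 1460 to 1530 and Rheb1-/- myeloid cells 1180 to 1300. For 31 of the 49 the wild-type stem cell array was the highest of the 14. The Rheb1-/- stem cell array was below the whole progenitor range in the sum. Yet it was at or below the highest progenitor array for just 25 of the 49 markers (65.4% of all measured genes). It was above every progenitor array for the other markers, C1qa and Mertk among them. On the Rheb1-/- stem cell array 2 markers were not well above background.

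Several single genes show the size of the difference, some of them from other lists. Cd5l, a secreted scavenger-type protein of resident macrophages, read 5.51 on the wild-type stem cell array and -0.48 on the Rheb1-/- array, while the 6 progenitor arrays lay between -1.18 and -0.49 and the wild-type myeloid arrays at 0.78, 1.13 and 1.25. The chains of the complement recognition protein C1q moved in parallel, C1qa from 4.97 to -0.01, C1qb from 4.28 to -0.43 and C1qc from 5.59 to 0.76 between the wild-type and the Rheb1-/- array. Spic, the transcription factor of red pulp macrophages, read 3.89 and -0.67, the heme oxygenase gene Hmox1 read 3.67 and -1.59, and the iron exporter gene Slc40a1 read 4.78 and 0.55. Vcam1, an adhesion molecule of the macrophages that clear red cells and of marrow stroma, read 6.23 and 1.80, with the progenitors at 3.74 to 4.19 in between. Adgre1, a surface antigen of mature macrophages, read 4.19 and -0.28. Each of these genes was brighter on the wild-type stem cell array than on any of the 6 myeloid cell arrays, by the least in Slc40a1, where the highest of those read 4.72. Further genes among the 12 largest were Fcna, a ficolin (-5.82), Timd4, a receptor for dying cells (-5.75), Siglec1, or CD169 (-5.51, with -2.81 at a second probe), the monocyte chemokine gene Ccl8 (-5.83) and the lipoprotein lipase gene Lpl (-5.39). In the replicated cells 26 of 47 tested markers fell and 2 rose in Rheb1-/- myeloid cells (limma, adjusted p under 0.05, against 17.6% and 16.7% of all genes). In progenitors 1 fell, Ms4a7, against 0.0226% of all genes. At an unadjusted p under 0.05 in limma, 16 markers were lower and 2 higher in progenitors. By the same measure 21 of 25 megakaryocyte and platelet genes and 20 of 34 sterol and fatty acid synthesis genes were lower, with 0 higher in either list. The share of all genes at that unadjusted threshold is not given here, so these counts cannot be judged against it. Whether macrophages or their RNA were present in the wild-type sample was not tested, and in bulk RNA fewer cells of a type and less RNA per cell cannot be told apart.

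**Figure D2:**
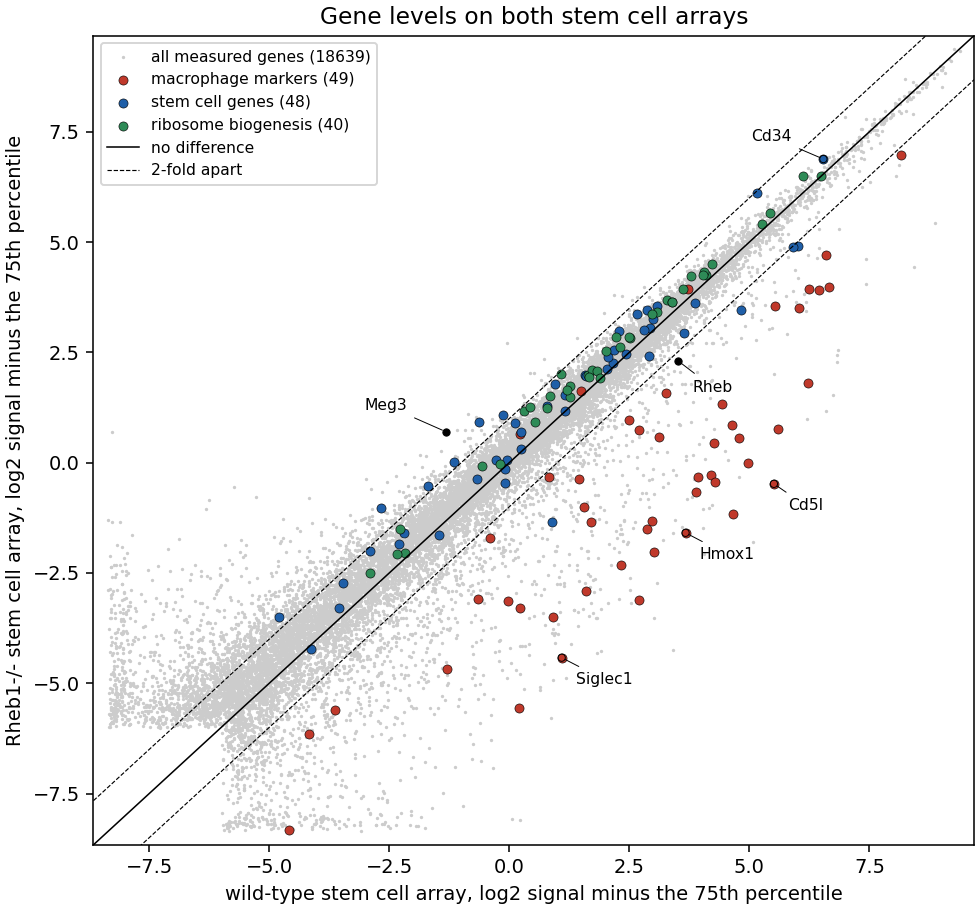
Level of each of the 18639 measured genes on the wild-type (x axis) and the Rheb1-/- (y axis) stem cell array, both as log2 signal minus the array's 75th percentile; dashed lines mark a 2-fold difference. Macrophage markers lie below the lower line in 46 of 49 cases, and the 40 ribosome biogenesis genes all lie between the solid and the upper dashed line.

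**Figure D3:**
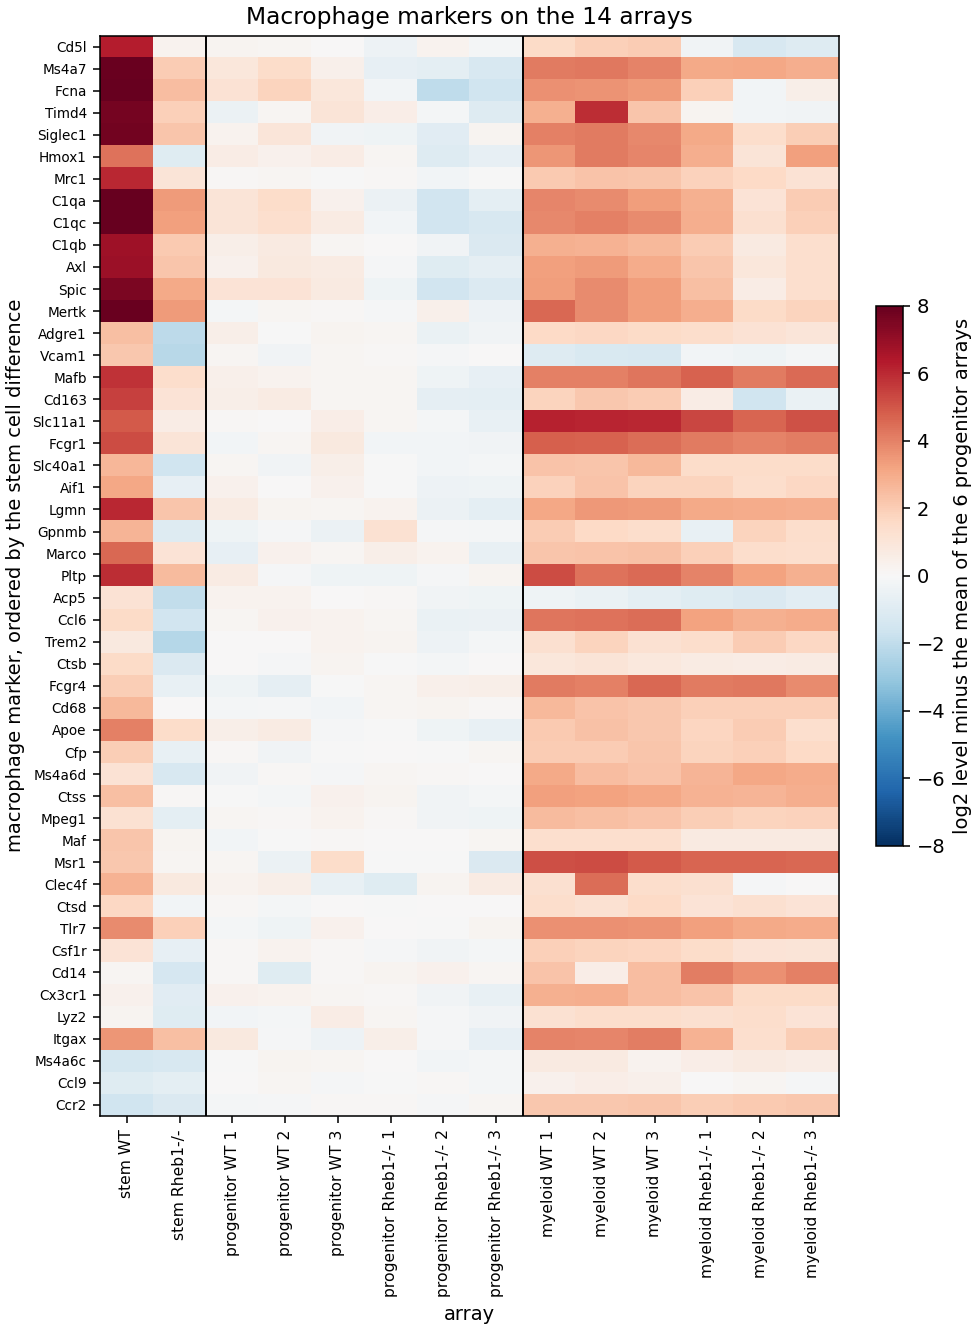
The 49 macrophage markers (rows, ordered by the stem cell difference) on the 14 arrays (columns), coloured by log2 level minus the mean of the 6 progenitor arrays, with the colour capped at 8 in either direction. The wild-type stem cell column is the highest of the 14 for 31 markers, and the Rheb1-/- stem cell column is below it in 46 rows.

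The promoters of these genes were searched for the letters of the PU box bound by PU.1, the ETS factor of the myeloid lineage. Of 35 markers with a RefSeq promoter (build GRCm38.p6, the 250 bases before the start), 16 (45.7%) held the core GAGGAA on either strand, against 25.9% of 27025 genes, and 2 (5.71%) held the longer GAGGAAGT, against 2.79%. Both that held the longer form are shown 5′ to 3′ on the gene's strand with the match in capitals, which here reads as the reverse complement ACTTCCTC. C1qc is on the minus strand at chr4:136892915-136893164 and Fcgr4, an activating Fc receptor with a stem cell difference of -2.56, on the plus strand at chr1:171018676-171018925.
C1qc: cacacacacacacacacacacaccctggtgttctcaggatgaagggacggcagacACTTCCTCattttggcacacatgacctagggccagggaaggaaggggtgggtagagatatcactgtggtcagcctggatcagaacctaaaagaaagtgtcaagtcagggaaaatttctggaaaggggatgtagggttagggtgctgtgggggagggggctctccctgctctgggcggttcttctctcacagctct
Fcgr4: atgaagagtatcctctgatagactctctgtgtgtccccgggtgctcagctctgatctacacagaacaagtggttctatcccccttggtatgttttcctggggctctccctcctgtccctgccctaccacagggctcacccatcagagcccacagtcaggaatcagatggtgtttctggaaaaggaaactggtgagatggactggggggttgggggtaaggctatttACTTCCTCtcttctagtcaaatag
A match describes the letters only and says nothing of binding. The motifs were chosen after the expression values were seen, the longer PU box form was added to the core, and the window was shortened after a first count to leave out transcribed bases. The only other motif searched was the heat shock element, taken as 3 GAA units in alternating orientation with 2 free bases between units, on both strands, in the 8 heat shock genes with a promoter. It was found in 2 of them (25%), against 0.514% of all genes, and these were the mitochondrial chaperonin genes Hspe1 and Hspd1, with stem cell differences of 0.07 and 0.19, while this window of Hspa1a and Hspa1b held no match.

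Genes of other mature cells were lower as well. The median over 21 B cell genes was -1.98, with 18 at least 2-fold lower and none higher, where replicate pairs reached 1.06. Their summed level was 347 on the wild-type stem cell array and 86.6 on the Rheb1-/- array, against 23.0 to 37.3 in progenitors. Jchain, the joining chain of secreted antibodies, differed by -4.30. Blk, a B cell kinase, was at least 6.12-fold lower and Igkv6-20, an antibody light chain segment, at least 101-fold lower, neither being well above background on the Rheb1-/- array. Ebf1, a transcription factor of the B lineage, differed less, by -1.89. In Rheb1-/- myeloid cells 15 of 20 tested B cell genes fell (limma, adjusted p under 0.05, against 17.6% of all genes). In progenitors limma called none of them. At an unadjusted p under 0.05, 1 was lower, and the share of all genes at that threshold is not given here. At an adjusted p under 0.05 limma called 13 of all 17720 genes in progenitors, so none in a list of 20 says little. Both stem cell arrays were above every progenitor array for 17 of the 21.

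Dendritic cell genes had a median of -1.37 (14 of 21 lower, none 2-fold higher), where replicates reached 0.49, and MHC class II presentation genes -1.42 (9 of 17 lower), where they reached 0.56, led by the costimulatory Cd86 at -3.35 and the class II chain H2-Aa at -2.61. Neutrophil maturation genes had -1.10 (15 of 28 lower), beyond the 0.81 of replicates. Erythroid genes had -1.36 (19 of 33 lower) and eosinophil, basophil and mast cell genes -1.06 (13 of 26 lower, 1 higher), but replicate pairs of other groups reached 1.63 and 1.59 for these 2 lists, so neither stood outside that spread. Ccr3, the eotaxin receptor of eosinophils, nevertheless showed the largest difference of any gene well above background on both arrays, 3.02 against -3.52, with 1.63 as its largest replicate difference. Ear1, Ear6 and Ear10, near-identical eosinophil ribonucleases whose probes may share signal, differed by -5.21, -5.09 and -5.09 and were brighter on all 6 progenitor arrays than on either stem cell array. Marrow stromal and endothelial genes were mixed, with 5 of 24 higher and 7 lower and a median of -0.36 that turned to 0.32 without genes higher in wild-type myeloid cells, yet included the chemokine gene Cxcl12 at -3.93 and the osteoblast gene Bglap at -3.88. Kitl, encoding stem cell factor, was at least 10.2-fold lower, with neither of its probes well above background on the Rheb1-/- array. T and NK cell genes (median -0.51, 1 higher and 6 lower of 30) and megakaryocyte genes (0.11, 2 higher and 5 lower of 25) stayed within replicate spread.

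**Figure D4:**
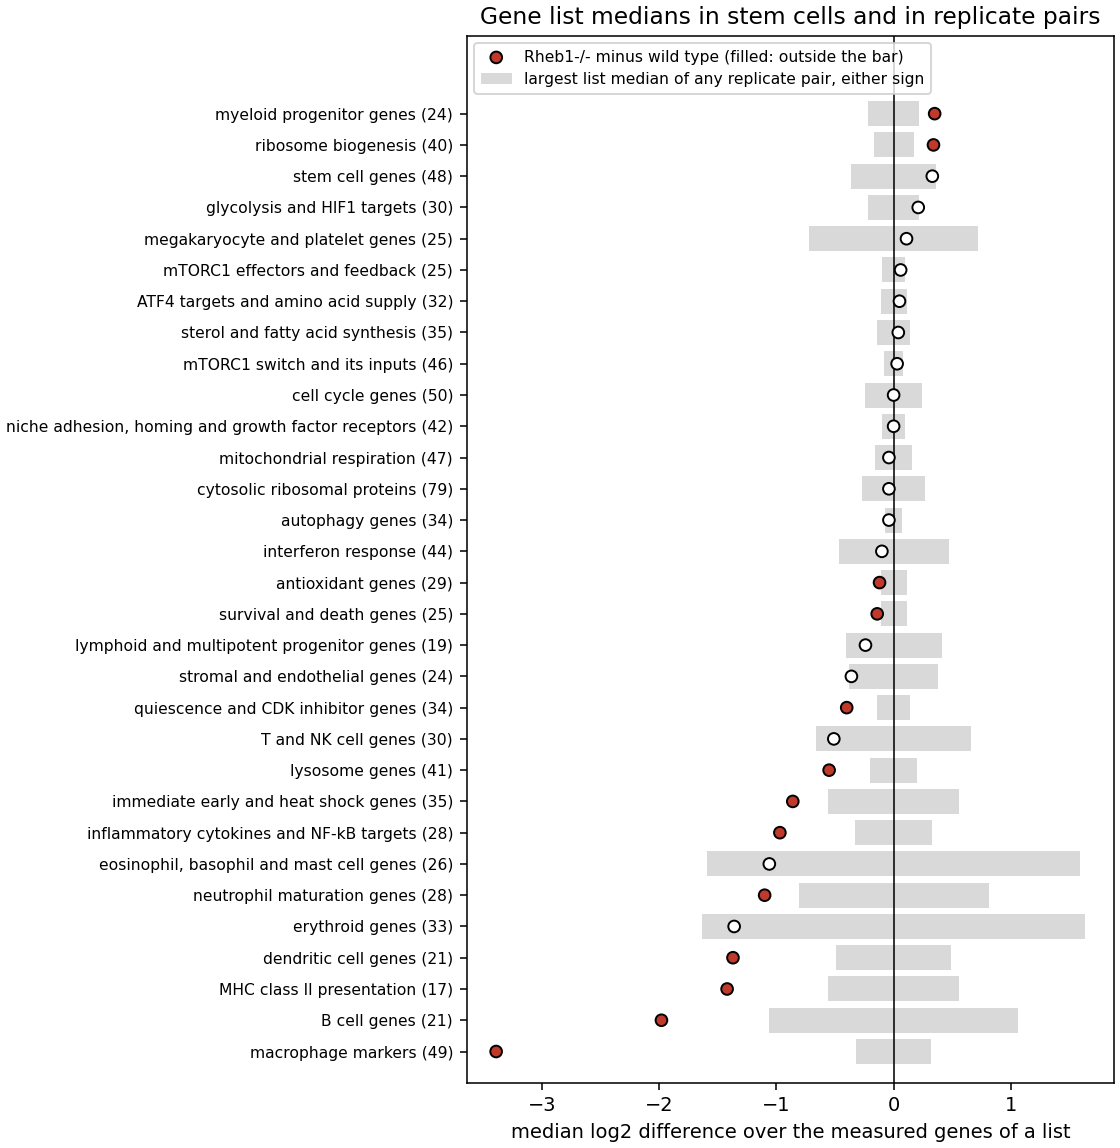
Median log2 difference of each gene list between the stem cell arrays (points, measured genes in parentheses), with the largest median that the list reached in any of the 12 replicate pairs drawn as a bar of both signs. Of 31 lists 13 lie outside their bar, from macrophage markers at -3.39 to myeloid progenitor genes at 0.35.

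Genes of the mTORC1 pathway itself barely differed. Over 46 genes of the switch and its inputs the median was 0.03, with 2 lower past 2-fold and none higher. The 2 were Rheb and Sesn2, a leucine sensor that restrains mTORC1, which read 1.68 on the wild-type and 0.43 on the Rheb1-/- stem cell array, though a second Sesn2 probe gave -0.33. Mtor, Rptor, Tsc1 and Tsc2 differed by 0.27, 0.46, 0.45 and -0.05. Of 25 effector and feedback genes 1 was 2-fold higher and 2 lower, with a median of 0.06. Both medians turned below 0 with median centring, to -0.07 and -0.04. Sgk1, a kinase downstream of mTORC2, read 2.85 and 0.22, against replicate differences of at most 0.41, and its levels in myeloid cells, 3.56 to 4.22, were above both. Its other probe was not well above background on either array. Grb10, an adaptor that mTORC1 stabilises and that damps insulin signalling, read -0.45 and 0.52, with 0.49 and 0.40 as the differences at its other probes. It rose in Rheb1-/- myeloid cells by 1.87 (limma, adjusted p = 7.07e-05) and not in progenitors (0.08, adjusted p = 0.868).

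Ribosome biogenesis genes, an output of mTORC1 signalling, were slightly higher on the Rheb1-/- array. All 40 lay above 0, where 62.8% of measured genes did, with a median of 0.34 that no replicate pair matched (0.17), and none reached 2-fold. Set against the all-gene median of 0.14, 37 of the 40 lay above it, and with median centring 38 lay above 0, around a list median of 0.25. Beyond their own replicate differences were 20 of the 40 (18.4% of all measured genes), for example Utp20 (1.07 and 2.02, wild type then Rheb1-/-), Nop14 (0.31 and 1.17) and Nle1 (0.43 and 1.27), all needed to build ribosomal subunits. A second probe gave 0.41 for Nop14 and -0.42 for Utp20, the latter not well above background on either array. For Nle1 the 6 progenitor arrays lay in between, at 0.86 to 1.17. In myeloid cells 32 of the 40 rose and 1 fell (limma, adjusted p under 0.05, against 16.7% and 17.6% of all genes). Of 79 ribosomal protein genes 75 rose there and 0 fell, and of 50 cell cycle genes 41 rose and 0 fell. Yet neither of these 2 lists stood outside replicate spread in stem cells. In progenitors limma called none of the 40 ribosome biogenesis genes. At an unadjusted p under 0.05, 5 were higher, and the share of all genes at that threshold is not given here. Of all genes 0.0508% rose in progenitors at an adjusted p under 0.05, so none in a list of 40 says little. Ribosomal protein genes had a median of -0.04 over 79, cell cycle genes 0.00 over 50, mitochondrial respiration genes -0.04 over 47 and autophagy genes -0.04 over 34, all within replicate spread and with no stable sign, since each lay on either side of 0 under different settings. Sterol and fatty acid synthesis genes (0.04, 1 of 35 lower) and ATF4 targets (0.05, with 1 higher and 3 lower of 32) were so too, and glycolysis genes (0.21, against 0.22 in replicates) lay within replicate spread. Among the ATF4 targets Chac1, a glutathione-degrading enzyme, read -1.97 and -4.09.

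Several stress and quiescence genes were lower on the Rheb1-/- array. Immediate early and heat shock genes had a median of -0.86 (15 of 35 lower, none higher), and the inducible HSP70 gene Hspa1a read 3.40 and -0.16 and Hspa1b 0.14 and -2.95. The progenitor arrays ranged from 1.95 to 4.33 for Hspa1a and the myeloid arrays from -0.33 to 3.30, so the Rheb1-/- stem cell array lay below the progenitors and the wild-type one among them. These 2 genes are near-identical copies whose probes may share signal. Atf3, a stress-induced factor, differed by -2.62. Of 34 quiescence and CDK inhibitor genes 8 were lower and none higher (median -0.40, replicates at most 0.14), led by Id2 (3.83 and 1.38), Klf2 (5.46 and 3.04) and Klf4 (5.40 and 3.02), transcription regulators, although a second Klf2 probe gave -0.75. The cell cycle inhibitor gene Cdkn1c, a mark of quiescent stem cells, read -0.05 and 0.07. Lysosome genes had a median of -0.55 (13 of 41 lower) and inflammatory cytokine and NF-kB genes -0.97 (13 of 28 lower). All 4 lists contain genes that were 2-fold higher in wild-type myeloid cells than in wild-type progenitors. Over the other members the medians were, in the order given, -0.60 (25 genes), -0.11 (20), -0.53 (31) and -1.01 (10). For macrophage markers it was -2.67 (5), and for B cell, dendritic cell and MHC class II genes -0.43 (2), -0.14 (7) and -0.21 (6). Interferon response genes were near 0 (-0.10; 5 of 44 lower).

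The largest higher genes had low levels. 9530018F02Rik went from -5.73 to -0.55, Stra6l, related to the retinol transporter gene Stra6, from -5.59 to -1.76, and Thbs3, a thrombospondin, from -4.17 to -0.79, each well above background on both arrays and above replicate differences of 1.51, 1.13 and 1.03. A second Stra6l probe, not well above background on either array, gave -0.98, and the difference was 1.42 over the mean of its probes and 1.99 with normexp. Dlk1, a Notch-related transmembrane protein encoded in an imprinted cluster on chr12, read -4.65 and -2.02, with 1.59 at a second probe, and the progenitor arrays spanned -3.51 to -1.60. Its neighbours in that cluster were then looked at, a choice made after these values were seen. Meg3, the long non-coding RNA of the maternal allele, read -1.32 and 0.70 on the wild-type and Rheb1-/- stem cell arrays, against -7.68 to -5.92 in progenitors and -6.47 to -4.53 in myeloid cells. Both stem cell arrays were thus far above all 12 others for Meg3. Rian, another RNA of the cluster, was at least 8.53-fold higher on the Rheb1-/- stem cell array, where alone of the pair it was well above background, and the progenitor arrays spanned -8.46 to -3.22. Mirg was at least 1.27-fold higher, and Dio3 was above background on neither array. Among the highest differences not above background on the wild-type array were Klk1b24, a kallikrein (at least 105-fold), and Pax9 (at least 26.1-fold). The 4 slide 1 arrays were all at least 2-fold above the 10 others in 4 genes, Klk1b24 and Pax9 among them, so for these slide and genotype cannot be told apart. Both slide 2 arrays were at least 2-fold below the 12 others in 132 genes, and 93 of these were among the genes higher on the Rheb1-/- stem cell array, although 1 of those 2 arrays is the wild-type stem cell array itself.

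The neighbouring array shows how far the other array of slide 2 lay from its replicates. It is 1 array, so slide, scan day and sample cannot be told apart in it, and no such share is given for other arrays. Wild-type progenitor array 1, which shared slide 2 with the wild-type stem cells, was at least 2-fold below both other wild-type progenitor arrays in 14.6% of the genes higher on the Rheb1-/- stem cell array, against 3.07% of all measured genes and 5.06% of the lower genes. It was 2-fold above them in 4.55% of the lower genes and 4.03% of the higher genes, against 1.48% of all measured genes. Leaving out every gene so marked, a choice made after seeing the data, left 1476 higher and 1412 lower.

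Sex-linked transcripts also separated the stem cell arrays. The Y-linked genes Ddx3y and Eif2s3y, a helicase and a translation factor subunit, read 0.05 and 0.23 on the wild-type stem cell array and -8.08 and -8.09 on the Rheb1-/- array, where neither was well above background, differences of at least 67.2-fold and 76.1-fold. Kdm5d, also Y-linked, was at least 10.4-fold lower. Xist, the RNA of the inactive X, read 4.97 and 6.04. All 6 progenitor arrays carried both Xist (4.45 to 5.15) and Ddx3y (-0.23 to 0.81), the Rheb1-/- myeloid arrays Xist alone (up to 5.27), and wild-type myeloid arrays 1 and 3 Ddx3y (0.57 and 1.25) with little Xist (-0.13 and 0.15). Wild-type myeloid array 2 carried both, Xist at 4.31 and Ddx3y at -3.28. The wild-type stem cell sample thus held RNA of both sexes by these genes and the Rheb1-/- one did not, so sex and genotype cannot be told apart either. Without genes on the sex chromosomes, again a choice made after seeing the data, 1733 were higher and 1515 lower.

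**Figure D5:**
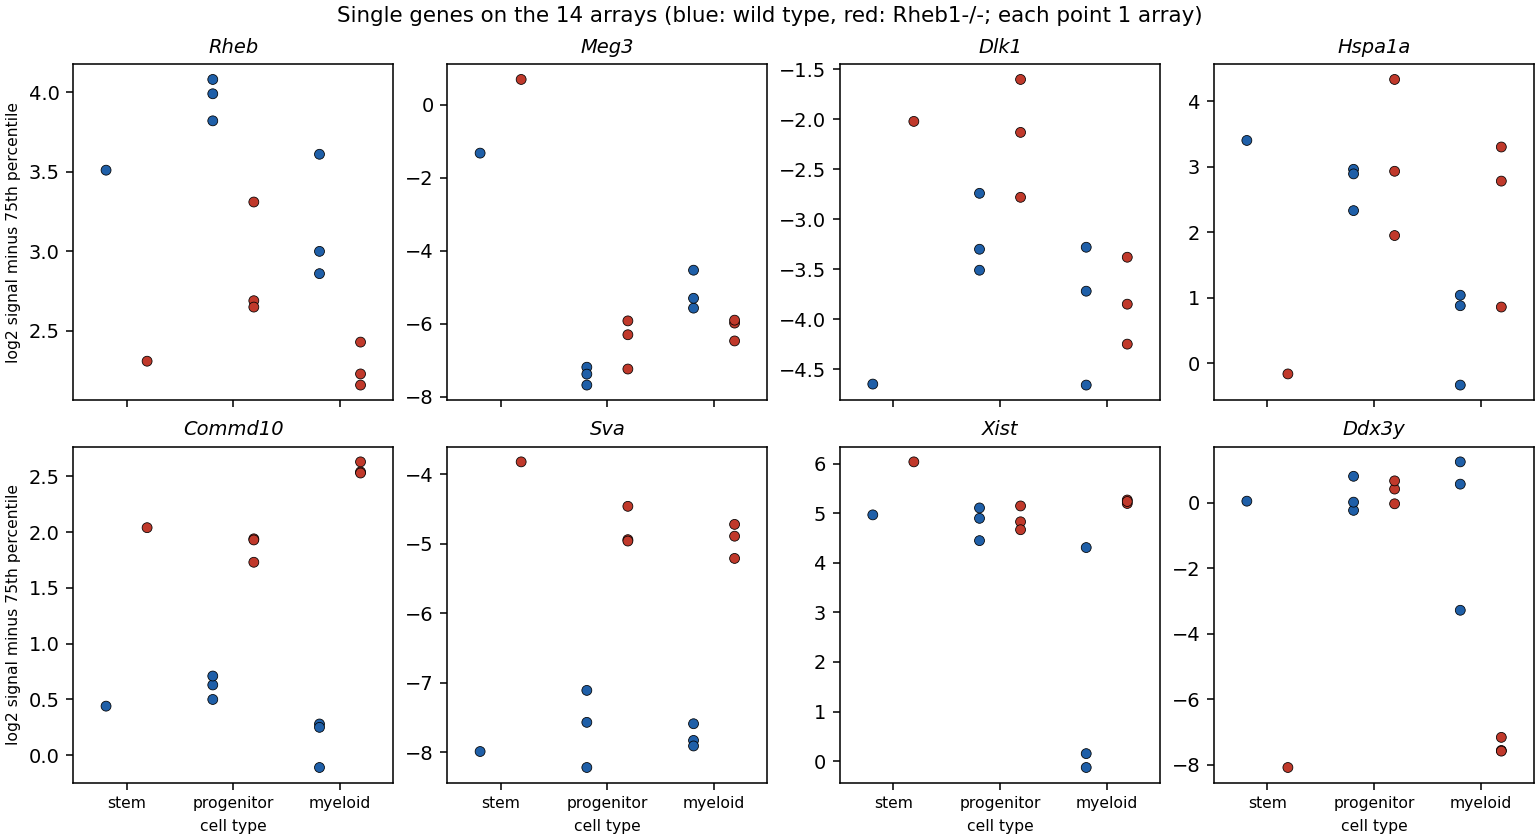
Levels of 8 genes on the 14 arrays (y axis, log2 signal minus the array's 75th percentile, 1 point an array; blue wild type, red Rheb1-/-) by cell type. Rheb, Commd10 and Sva separate the genotypes in all 3 cell types, whereas Ddx3y is low on the Rheb1-/- stem cell and myeloid arrays and not on the progenitor arrays.

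The replicated cell types share no sample with the stem cell difference, though they share slides with it, and allow a test. limma called 13 of 17720 genes in progenitors (0.0734%; 9 rose, 0.0508%, and 4 fell, 0.0226%) and 6063 in myeloid cells (34.2%; 2952 rose and 3111 fell, Benjamini-Hochberg adjusted p under 0.05). Of 1171 tested genes that were lower in Rheb1-/- stem cells, 476 also fell in myeloid cells (40.6%, against 17.6% of all genes) and 32 rose (2.73%, against 16.7%). Of 1246 that were higher in stem cells, 79 rose (6.34%, against 16.7%) and 166 fell (13.3%, against 17.6%), so both shares were below those of all genes. In the myeloid cells slide coincided with genotype. Ddx3y there read -3.28 to 1.25 on the wild-type arrays and -7.58 to -7.16 on the Rheb1-/- arrays. Sex and genotype thus cannot be told apart in the myeloid cells either. In progenitors 8 of the genes 2-fold apart in stem cells passed. Of the 1246 higher in stem cells 4 rose (0.321%, against 0.0508% of all genes) and 0 fell. Of the 1171 lower in stem cells 2 rose and 2 fell (0.171% each, against 0.0508% and 0.0226% of all genes). Between 3 (without wild-type array 1) and 32 (without Rheb1-/- array 1) genes 2-fold apart in stem cells passed when an array was left out. Of the 8, Igkv4-86 and Kif1a rose in progenitors (1.73 and 1.64) and were lower in stem cells, by -4.21 and by at least 8.86-fold, Kif1a not being well above background on the Rheb1-/- array. Of the 13 genes called in progenitors 6 also passed in myeloid cells with the same sign, where 16.7% of all genes rose and 17.6% fell. Among these 6, Commd10, Sva, Ifi207 and Ms4a7 were also 2-fold apart in the same direction in stem cells, whereas C4b and Gpt2 differed there by -0.59 and -0.42.

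Commd10, a subunit of an endosomal sorting complex, read 0.44 on the wild-type and 2.04 on the Rheb1-/- stem cell array. It rose by 1.25 in progenitors (adjusted p = 0.00504, limma) and by 2.42 in myeloid cells (2.82e-05), with no overlap of genotypes. Its levels on slide 3 alone were 0.50 and 0.71 in wild-type and 1.73 and 1.94 in Rheb1-/- progenitors. Sva, encoding a secreted protein of the seminal vesicle, was listed at -7.99 and -3.82, well above background on the Rheb1-/- array alone, and rose by 2.85 and 2.84 in progenitors and myeloid cells (adjusted p = 0.00504 and 0.000211). Ifi207, an interferon-inducible gene, read -0.86 and -2.88 and fell by 1.41 and 0.70 (adjusted p = 0.0346 and 0.0162). Ms4a7 read 2.71 and -3.12 in stem cells and fell by 1.82 and 1.11 (adjusted p = 0.0374 and 0.00751). The progenitor calls of Commd10 and Sva passed with any 1 progenitor array left out (adjusted p up to 0.0379 and 0.0378). With the replicate number as a block their adjusted p was 0.0929 and 0.0564, and within the 4 progenitor arrays of slide 3 it was 0.562 for both, with differences of 1.23 and 2.64. Neither of those limma fits called any progenitor gene that was 2-fold apart in stem cells. The progenitor calls of Ifi207 and Ms4a7 passed in 3 of 6 fits with an array left out, failing without wild-type array 1 and Rheb1-/- arrays 2 and 3 (adjusted p up to 0.145 and 0.13). The myeloid call of Ifi207 passed in 4 of 6 (adjusted p up to 0.0592).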

How the data were processed

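Cy3-labelled RNA was measured on 1-colour Agilent arrays, per the labels. The processed signal intensity is background-subtracted by Feature Extraction, per the file headers, which name version 10.7.3.1 (the submitters' processing notes name 9.1). The deposited log2 table of 41265 probes was quantile normalized (column medians 5.92) and served as an alternative. Controls (1639 of 45018 spots) and 79 to 195 outlier spots an array were dropped. Each log2 intensity had its array's 75th percentile subtracted. A gene was represented by its brightest probe, by the mean of the 12 replicated arrays (9043 of 27343 genes had several). Of 41174 probes, RefSeq (GRCm38.p6) named 27668 by accession, 5589 by symbol and 471 by synonym; 7446 kept the file's name. Coordinates are mm9.

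Stem cell differences were counted at 2-fold, beside 12 pairs of replicate arrays. Where the lower array was not well above background, "at least" is the bound against its lowest well-measured signal. The other 12 arrays were fitted in limma 3.58.1 (in R 4.3.3, with statmod 1.5.0) with a mean for each group (8 residual, 1.95 prior degrees of freedom) over 17720 genes. Tested on simulated data, with 100 genes changed at each size, that fit recovered 64% of changes of 1 and 88% of changes of 2 (log2). The same genes were changed in both contrasts and gave these shares in both, with 8 and 10 false calls. Recovery depends on how many genes change, so these shares need not hold for the real contrasts. Samples are not tied to animals by the labels; p-values cover only the spread between samples.

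Named are Rheb, the 12 largest differences each way beyond a gene's replicates, the 4 largest bounds each way, up to 4 members a list by that rule, and markers. Members and the 31 lists were chosen with earlier results of these data known. Alternatives were normexp (offset 50), other normalizations and filters, blocks, and left-out arrays.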

Additional observations from a re-analysis of the deposited data

Results flagged for a closer look

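Klk1b24, a kallikrein gene, was at least 105-fold higher on the Rheb1-/- stem cell array, being not well above background on the wild-type one, and -6.42 apart (log2) in myeloid cells (limma, adjusted p = 0.00204), where the 3 wild-type arrays read -0.87, -0.80 and -0.48 and the Rheb1-/- ones -6.70, -7.74 and -6.96. The Rheb1-/- stem cell array and the 3 wild-type myeloid arrays shared slide 1. The RNA 2900052N01Rik differed by 2.39 in stem cells and by -1.45 in myeloid cells (limma, adjusted p = 0.0163). Its stem cell difference was 1.12 with normexp, and 1.34 at a second probe not well above background on either array. It read -5.58 on the wild-type stem cell array. Wild-type progenitor array 1, on the same slide, read -4.64, against -3.21 and -3.19 on the other 2 wild-type progenitor arrays. Slide and genotype cannot be told apart for this gene either. In both genes every sample of one cell type moved opposite to those of the other, and the difference was not tested, since the stem cells have 1 array a genotype.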

How the results depend on the processing

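The count of genes 2-fold higher in stem cells moved from 1813 to 353 with normexp, to 869 over genes well above background on both arrays and to 1182 without genes higher in wild-type myeloid cells. The count of lower genes moved from 1562 to 883, was 1055 over genes above background on both arrays, was 582 without genes higher in wild-type myeloid cells and 796 without those highest on the wild-type stem cell array. The cause of the normexp shift was not tested. The other settings kept both counts within 1.5 times, no list median outside its replicate spread changed sign (8 of the others did under some setting), and 15 of the 31 list medians moved by more than their spread under some setting. Of the 32 single genes carried through the settings besides Rheb, none reversed and 27 moved by more than their replicate spread under some setting. Over the 138 genes that the naming rule picks, another scaling or probe summary turned the sign of 1, Stard4 (0.45, or -0.08 over the mean of its probes). The replicate yardstick began at 9.18% over pairs across slides in place of 6.78%. The number of genes 2-fold apart in stem cells that passed in progenitors, 8, was 5 after quantile normalization, 5 in the deposited table, 0 in limma within the 4 arrays of slide 3 (373 at an unadjusted p under 0.05), and 3 to 32 with an array left out. With the replicate number as a block limma passed 0 in progenitors (521 at an unadjusted p under 0.05) and 677 rather than 753 in myeloid cells. Same-numbered samples correlated at -0.01, 0.11 and 0.03 in progenitors and -0.10, -0.06 and -0.15 in myeloid cells. These values gave no sign that the numbers pair the samples, but with 3 numbers a cell type they cannot exclude it.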
